A study of Sus scrofa with 6 samples.

Results

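PAX1, PAX9, NKX3-2, SOX9, COL2A1, ACAN, FOXC1, FOXC2 and UNCX are 9 genes that regulate or build the sclerotome and its cartilage, and they were taken as named, out of 25859 annotated genes on the assembled pig chromosomes. Their open chromatin was read from single-cell ATAC-seq (scATAC-seq) of pig embryos, an assay in which the transposase Tn5 cuts accessible DNA and each cut carries the barcode of a droplet. The series holds 6 libraries, and every pairing of a stage with a breed has 1. Somites were dissected at embryonic day 18 (E18) and E21 and myotomes at E28, from purebred Tibetan pigs (ZZ) and from Duroc × Tibetan crosses (DZ). Each library was a pool of 5 embryos of the same sow, so the 2 libraries of a stage (1 ZZ and 1 DZ) are its only replicates, and stage and tissue cannot be told apart at E28. A member's peaks were those that overlapped its gene body or the 2000 bp before its start on the Sscrofa11.1 assembly. Over the 6 libraries these were 168 of 1047483 peaks. Peaks of different libraries that overlapped were joined into regions, which gave 38 member regions of 294825 in all. A region was called a promoter region when its peaks reached the gene start or the 2000 bp before it, which held for 10 of the 38.

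The sclerotome is the ventral part of the somite, from which the vertebrae and ribs form under the influence of Sonic hedgehog from the notochord and floor plate. PAX1 and PAX9 are paired-box transcription factors of the sclerotome, and NKX3-2 is a homeobox factor that acts downstream of them. SOX9 is the central transcription factor of cartilage formation and directly activates COL2A1, which encodes type II collagen, and ACAN, which encodes the core protein of the cartilage proteoglycan aggrecan. FOXC1 and FOXC2 are forkhead factors of the paraxial mesoderm, and UNCX is a homeobox factor of the posterior part of each sclerotome. Myotomes, which give rise to muscle, are a different derivative of the somite.

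A barcode counted as a cell when it held 2000 to 30000 counts (9286 to 11243 per library, 58809 in all), with 89816504 to 133037579 counts per library. Levels are given in CPM, the counts of a region scaled to the same total of kept counts in each library. Covered sequence was least at E28: peak sequence came to 191 and 168 Mb in the E18 pair, 147 and 158 Mb in the E21 pair, and 102 and 108 Mb in the E28 pair. Of the kept barcodes, 113 to 157 were shared between any pair of libraries, which is 1.22% to 1.66% of the smaller one. All 6 libraries had promoter counts for the somite gene TCF15 (38.2 to 55.3 CPM) and for the myogenic genes MYF5 (19.4 to 32.9 CPM), MYOD1 (18.5 to 25.0 CPM) and MYOG (4.27 to 20.2 CPM). MYF6 was listed at 0 in 3 of them. PAX3, which is in both the somite and the myogenic list below, had lower values at E28. It had 55.2 CPM in E18 ZZ, 61.3 in E18 DZ, 64.7 in E21 ZZ, 25.7 in E21 DZ, 18.3 in E28 ZZ and 23.1 in E28 DZ. Promoter levels of marker lists for other cell types also differed with stage. Of all promoter sums tested, 15.8% were called lower at E28 than at E18 and 13.9% higher. The summed promoter level of 5 epithelial genes was 119 to 120 CPM at E18, 43.4 to 50.1 CPM at E21 and 15.6 to 24.1 CPM at E28, and all 5 were lower at E28 than at E18 by the test used below. GRHL2, 1 of the 5, was listed at 0 in both E28 libraries. Of the endothelial genes TIE1 was listed at 0 in all 6 libraries, TEK in 4 and PECAM1 in 3, and the list summed to 42.7 to 46.2, 24.2 to 30.6 and 15.1 to 24.0 CPM, with 2 of 4 tested lower. For 5 neural progenitor genes the sums were 246 to 267, 212 to 235 and 53.9 to 109 CPM, with 4 of 5 lower and none listed at 0. For 4 neuron genes they were 105 to 113, 99.0 to 110 and 71.2 to 74.8 CPM, with 2 of 4 lower. The sums of 4 somite genes, which include FOXC2, were 155 to 161, 160 to 195 and 148 to 168 CPM, with 1 of 4 higher, and those of 8 myogenic genes 206 to 241, 147 to 223 and 150 to 226 CPM, with 0 of 8 called. For 8 fibroblast and mesenchyme genes they were 303 to 312, 344 to 368 and 440 to 457 CPM, with 4 of 8 higher and none listed at 0. The peaks of these genes outside the promoter were less uniform. There 1 of 3 tested epithelial, 3 of 5 endothelial, 0 of 3 neural progenitor and 1 of 4 neuron genes were lower at E28. Higher were 1 neural progenitor and 1 neuron gene. Of the 8 fibroblast and mesenchyme genes 3 were higher and 1 lower. The part of these shifts in the results on the 9 genes was not tested, and a smaller share of cells of a type cannot be told apart from less accessibility per cell in the summed counts of a library.

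Sequences of 5 regions that lost counts between E18 and E28 are shown because the stage comparison turns on them. Each was cut from the segment that carried a peak in all 6 libraries, outside the exons of protein-coding genes, as its central 300 bases or, for SOX9, as the whole 164 bases. They were read from Sscrofa11.1 on the strand of the gene. Sequence that lost its peak by E28 is left out by this rule, so the motifs shown lie in sequence that kept a peak. Capitals mark exact matches, on either strand, to 8 motifs: the SOX letters ACAAAG or ACAATG, the GLI letters TGGGTGG, the PAX letters GTCACGC, the NK homeobox letters CACTTA, the FOX letters GTAAACA, the homeobox letters TAATTA, the MyoD-type E-box CAGCTG and TATAAA. No motif contains the letters of another. The shared segment of the PAX9 region that also lost counts lies in an exon and is not shown.
COL2A1 intron, 15628 to 15927 bp after the start, chr5:78364966-78365265, minus strand: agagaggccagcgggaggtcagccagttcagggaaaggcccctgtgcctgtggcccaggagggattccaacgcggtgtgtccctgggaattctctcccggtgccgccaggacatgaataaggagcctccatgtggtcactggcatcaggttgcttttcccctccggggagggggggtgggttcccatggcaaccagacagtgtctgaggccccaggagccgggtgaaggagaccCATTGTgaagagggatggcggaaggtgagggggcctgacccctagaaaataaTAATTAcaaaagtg
ACAN upstream, -552 to -253 bp from the start, chr7:54449278-54449577, plus strand: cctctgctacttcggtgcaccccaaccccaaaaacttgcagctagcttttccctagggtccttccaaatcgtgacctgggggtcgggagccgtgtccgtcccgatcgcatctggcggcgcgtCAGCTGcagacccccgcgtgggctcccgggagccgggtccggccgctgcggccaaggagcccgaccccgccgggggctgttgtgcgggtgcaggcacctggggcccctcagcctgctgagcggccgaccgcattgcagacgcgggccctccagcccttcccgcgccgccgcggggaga
ACAN first intron, 9356 to 9655 bp after the start, chr7:54459186-54459485, plus strand: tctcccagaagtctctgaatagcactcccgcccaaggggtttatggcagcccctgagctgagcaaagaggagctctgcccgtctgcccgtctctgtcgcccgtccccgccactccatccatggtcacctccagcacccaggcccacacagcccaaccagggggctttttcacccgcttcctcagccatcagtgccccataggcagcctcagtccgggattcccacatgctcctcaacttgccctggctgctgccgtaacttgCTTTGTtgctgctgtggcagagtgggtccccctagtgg
SOX9 downstream flank, 5510 to 5673 bp after the start, chr12:8641642-8641805, minus strand: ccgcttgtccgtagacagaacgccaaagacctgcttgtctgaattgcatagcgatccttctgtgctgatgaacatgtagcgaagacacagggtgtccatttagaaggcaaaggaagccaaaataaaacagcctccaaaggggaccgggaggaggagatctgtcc
NKX3-2 downstream flank, 4721 to 5020 bp after the start, chr8:9178320-9178619, minus strand: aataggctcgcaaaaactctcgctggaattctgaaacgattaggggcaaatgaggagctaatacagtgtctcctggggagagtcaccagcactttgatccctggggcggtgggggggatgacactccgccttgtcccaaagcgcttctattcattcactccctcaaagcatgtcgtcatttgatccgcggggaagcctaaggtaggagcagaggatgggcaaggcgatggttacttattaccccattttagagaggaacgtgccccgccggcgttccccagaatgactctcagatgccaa

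The COL2A1 segment held 1 match to the SOX letters and 1 to TAATTA, the ACAN upstream segment 1 to CAGCTG, and the ACAN intron segment 1 to the SOX letters. The SOX9 and NKX3-2 segments held no match to these letters. Over all 17 member segments cut in this way, 6 held the SOX letters and 4 held CAGCTG. Of 63832 segments of 300 bases, cut from the middle of the segments shared by all 6 libraries across the genome with exons left in, 27.7% and 26.2% did.

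The 300 bases before the start are shown for PAX1, UNCX and FOXC2, 3 members whose promoter regions did not pass the stage test, with the same motifs in capitals. For PAX1 these bases lay between called peaks of the region, outside any peak, in E18 DZ, E28 ZZ and E28 DZ.
PAX1 promoter, chr17:29420817-29421116, plus strand: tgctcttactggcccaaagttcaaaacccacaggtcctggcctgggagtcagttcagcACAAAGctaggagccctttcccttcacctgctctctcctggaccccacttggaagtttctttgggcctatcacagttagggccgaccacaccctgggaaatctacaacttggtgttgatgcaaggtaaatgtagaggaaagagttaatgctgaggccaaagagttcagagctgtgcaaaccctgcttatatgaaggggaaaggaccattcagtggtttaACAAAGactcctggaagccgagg
UNCX promoter, chr3:803888-804187, plus strand: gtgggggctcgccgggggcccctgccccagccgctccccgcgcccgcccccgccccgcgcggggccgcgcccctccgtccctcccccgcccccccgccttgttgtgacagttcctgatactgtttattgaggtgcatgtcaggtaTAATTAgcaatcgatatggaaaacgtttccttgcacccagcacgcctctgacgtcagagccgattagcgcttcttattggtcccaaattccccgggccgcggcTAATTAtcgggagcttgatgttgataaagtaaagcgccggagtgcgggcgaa
FOXC2 promoter, chr6:2555042-2555341, minus strand: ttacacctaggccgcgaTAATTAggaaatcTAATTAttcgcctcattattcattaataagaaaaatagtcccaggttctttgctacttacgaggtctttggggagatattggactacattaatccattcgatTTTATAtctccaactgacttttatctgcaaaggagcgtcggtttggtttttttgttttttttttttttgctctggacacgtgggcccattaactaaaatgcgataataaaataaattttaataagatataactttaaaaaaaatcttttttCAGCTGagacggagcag

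The PAX1 promoter held the SOX letters 2 times and was the only member promoter of 9 to hold them, against 22.4% of 19556 protein-coding promoters of this length. TAATTA occurred 2 times in the UNCX promoter and 2 times in the FOXC2 promoter, and in no other member (22.2% of the 9, against 4.80% of all). CAGCTG was found in the FOXC2 and SOX9 promoters, against 16.03% of all promoters. No member promoter held the GLI, PAX, NK homeobox or FOX letters, which 8.54%, 2.18%, 7.95% and 2.87% of all promoters did.

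All 10 promoter regions of the 9 genes carried a peak in every library, as did 9 of the 28 other regions. Together these are 19 of 38 member regions, against 26.6% of all regions. The promoter regions were wide. The widest region at the start was 21318 bp long for UNCX and 21189 bp for FOXC1, and its median over the 9 genes was 8079 bp, against 2378 bp over 13800 protein-coding genes with a region there. UNCX and FOXC1 were longer than 99.8% of these genes, PAX1 than 98.2% and SOX9 than 98.1%. ACAN was the exception with 2532 bp, longer than 55.2% of them. Per kb of covered sequence the COL2A1 promoter region was the denser, with 12.8 to 18.4 CPM per kb over the 6 libraries, against 3.85 to 5.71 for ACAN, 5.35 to 6.07 for FOXC1 and 3.44 to 4.47 for UNCX.

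The comparison of E28 with E18 asks how the chromatin of these skeletal genes differs between somite and myotome. It was made with the edgeR quasi-likelihood test over all 78533 regions that carried a peak in every library, with a term for breed and Benjamini-Hochberg adjustment, as were the other comparisons of regions. Of the 19 member regions tested, 6 changed, and all 6 fell: a region inside COL2A1, the last-exon regions of PAX9 and SOX9, the promoter region and an intron region of ACAN, and the region that spans NKX3-2. That is 31.6% of the members, against 37.1% of all regions called in either direction and 18.1% called lower. The median log2 fold change was -0.13 over the 19 members and -0.02 over all regions. Of the 10 promoter regions, 2 fell (ACAN and NKX3-2), and of the 9 others, 4 fell. The promoter regions of PAX1, PAX9, SOX9, COL2A1, FOXC1, FOXC2 and UNCX and the upstream region of NKX3-2 did not pass the test.

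All 19 regions were covered over a shorter length at E28 than at E18, with a median ratio of 0.735, as were 78.5% of all regions tested (median ratio 0.779). Counts exist only inside called peaks, so this length enters the counts. Entering this length as an offset puts the comparison on a scale of counts per covered base. There the median of all regions moved to 0.43, with 45.8% of them called higher. On that scale 8 member regions were higher at E28 and 1, the COL2A1 intragenic region, was lower (log2 fold change -0.60 ± 0.15 SE, adjusted p = 0.00239), against 6.39% of all regions called lower. The falls below are therefore falls in counts per region, and the values per covered base stand beside them. A further fit kept only the 25935 regions whose covered length varied by at most 1.5 times, called regions of like covered length below. It scaled the libraries on those regions and did not correct for length. Its E28 against E18 estimate was lower than the main one in every member region it tested. When either E18 library was left out, fewer member regions were called, and fewer of all regions too. A call given below as lost without an E18 library is therefore not a loss particular to that member.

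**Figure D1:**
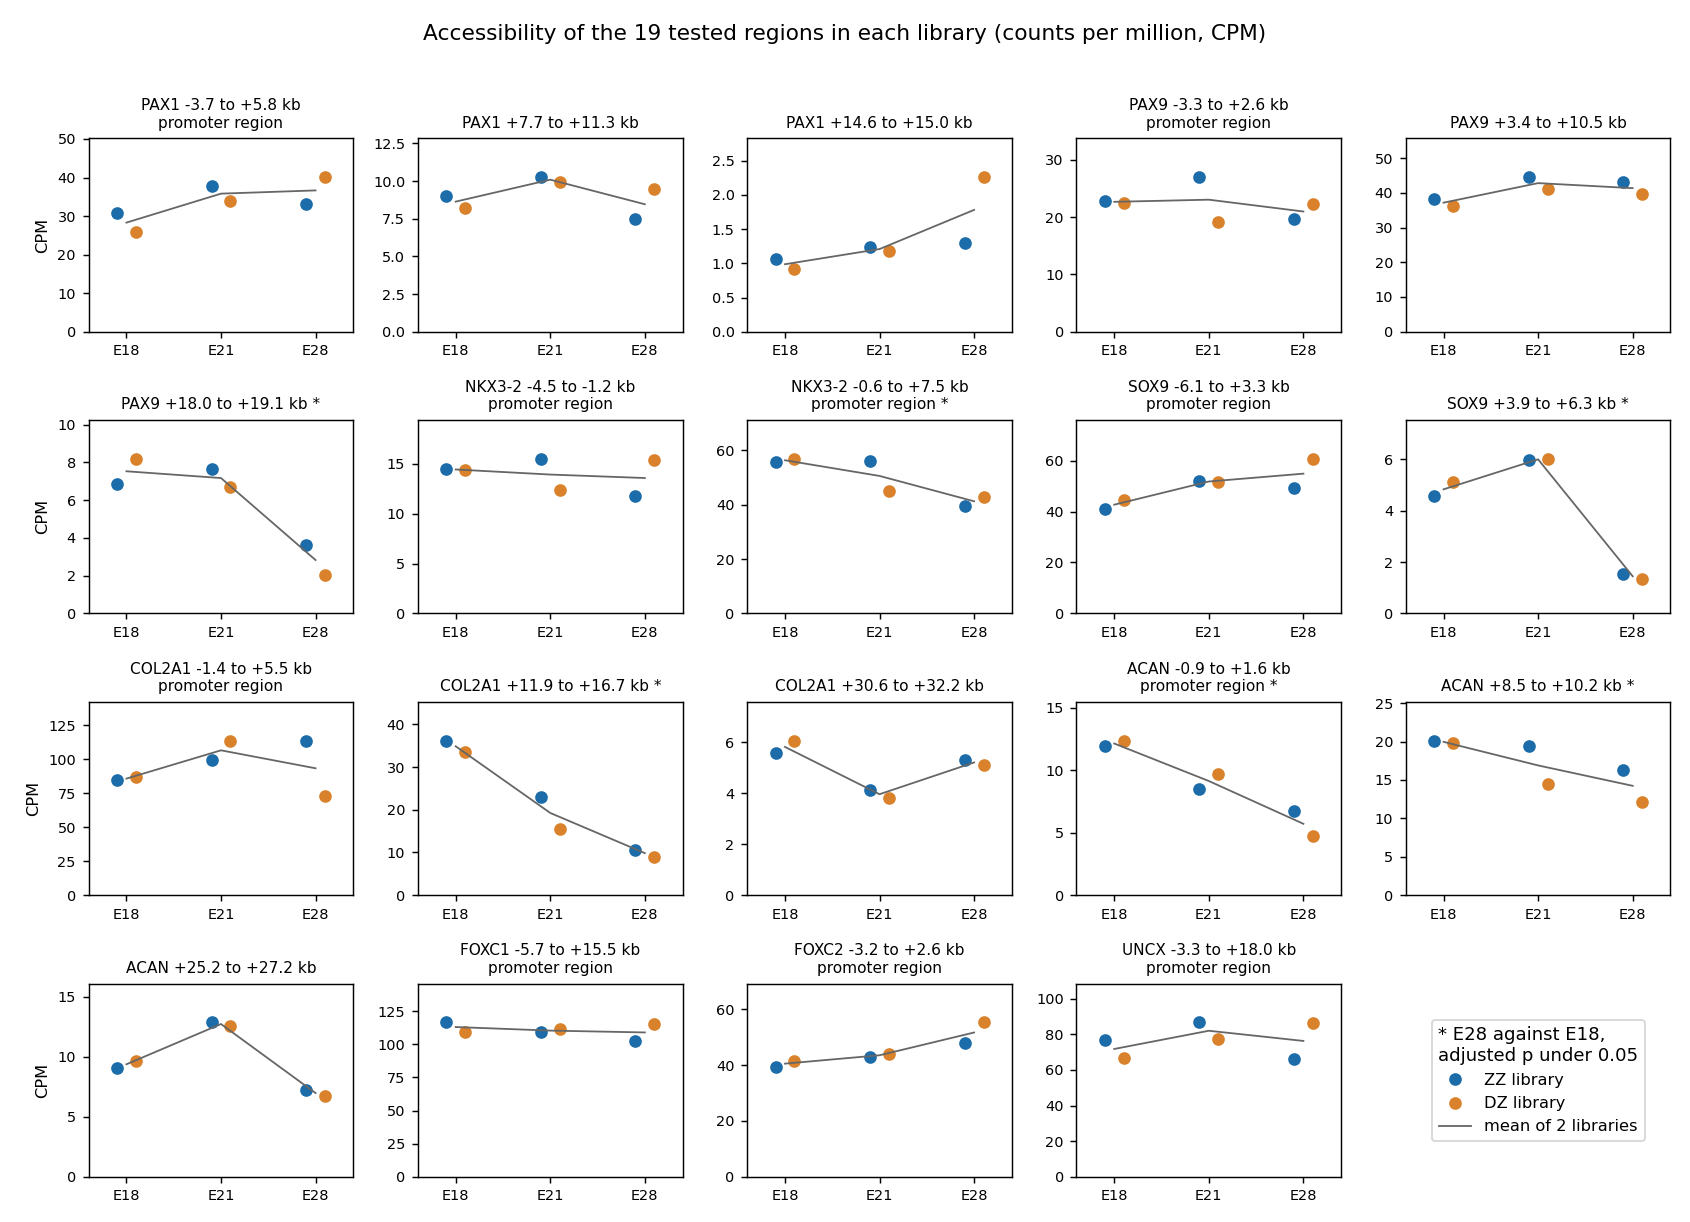
Level in CPM (y axis, from 0) of each of the 19 member regions with a peak in every library, by stage (x axis). Points are single libraries, ZZ in blue and DZ in orange, the line joins the mean of the 2 libraries of a stage, and panel titles give the distance from the gene start, with an asterisk where E28 differed from E18. The COL2A1 region at +11.9 to +16.7 kb steps down from 36.2 and 33.6 to 10.7 and 9.03 CPM. Of the 10 promoter panels, 2 carry an asterisk (ACAN and the NKX3-2 region over the gene), both with lower counts at E28.

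**Figure D2:**
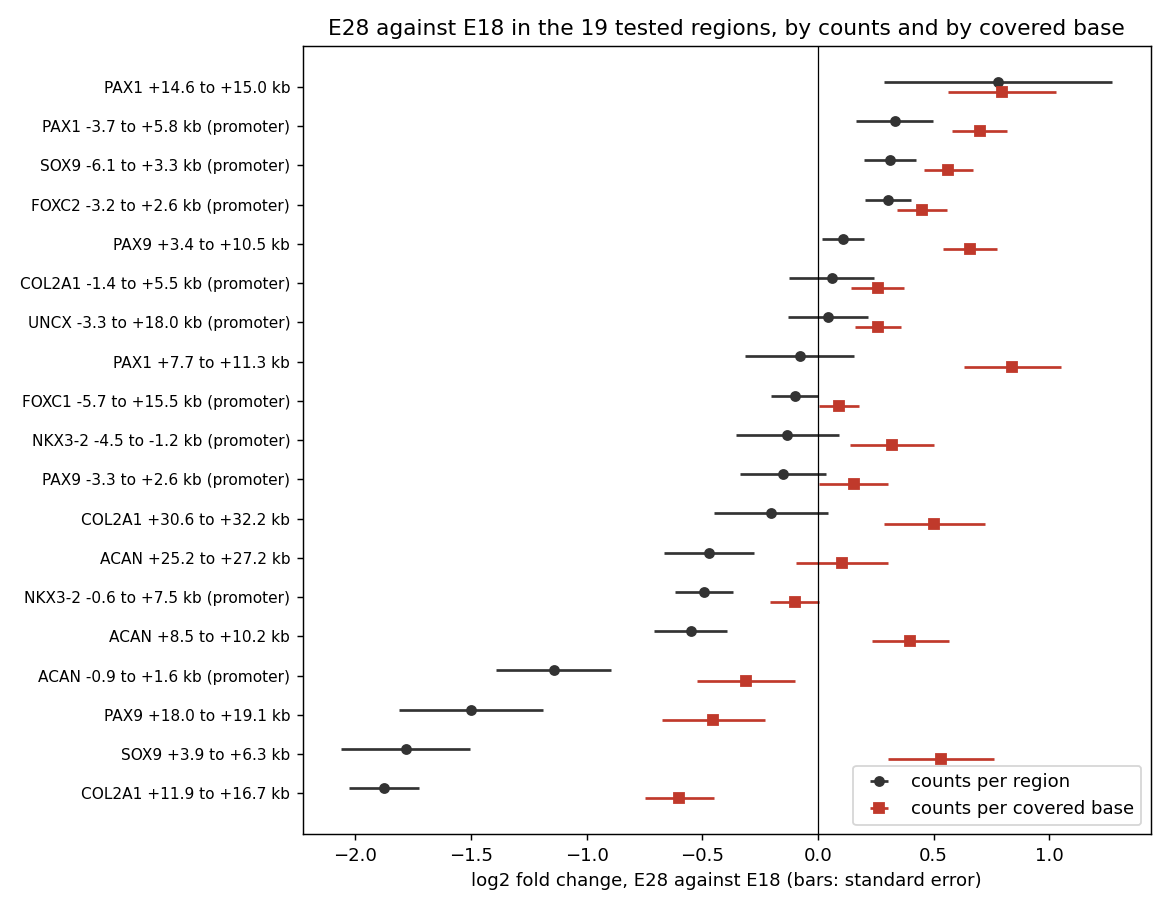
The log2 fold change of E28 against E18 (x axis, bars: standard error) for the 19 regions (y axis), from counts per region (black circles) and with the covered length as an offset (red squares). The red squares lie to the right of the black circles in all 19 regions, and for the COL2A1 region at +11.9 to +16.7 kb both values, -1.87 and -0.60, lie below 0.

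PAX1 lies on chromosome 17 (29421117 to 29436481, plus strand) and had 3 regions, none of which changed between E18 and E28. Its promoter region, from -3698 to +5803 bp, had 30.8 CPM in E18 ZZ, 25.9 in E18 DZ, 37.8 in E21 ZZ, 33.8 in E21 DZ, 33.2 in E28 ZZ and 40.1 in E28 DZ. The E18 libraries were the lowest, and the estimate for E28 against E18 was 0.33 ± 0.16 (SE) on the log2 scale (adjusted p = 0.162). Per covered base it was 0.70 ± 0.12 (adjusted p = 7.94e-05). The intragenic region from +7729 to +11329 bp held 7.48 to 10.3 CPM, and its stages overlapped (log2 fold change -0.08, adjusted p = 0.814; 0.84 and 0.00255 per covered base). A short region at the last exon, from +14561 to +15025 bp, had 1.06 CPM in E18 ZZ, 0.91 in E18 DZ, 1.24 in E21 ZZ, 1.18 in E21 DZ, 1.30 in E28 ZZ and 2.26 in E28 DZ. Its stages did not overlap, but its estimate for E28 against E18, the highest of the 19 regions, did not pass (0.78 ± 0.49 SE, adjusted p = 0.257). Per covered base it was higher at E28 (0.79, adjusted p = 0.00796). For all 3 values per covered base, the median of all regions on that scale is 0.43, with 45.8% of them called higher.

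PAX9, the close relative of PAX1, lies on chromosome 7 (63324709 to 63346326, minus strand) and also had 3 regions. Its last-exon region, from +17962 to +19102 bp, had 6.87 CPM in E18 ZZ, 8.19 in E18 DZ, 7.66 in E21 ZZ, 6.68 in E21 DZ, 3.61 in E28 ZZ and 2.05 in E28 DZ. Both E28 libraries lay below all 4 somite libraries, and the region fell by 1.5 ± 0.31 (SE) on the log2 scale (adjusted p = 0.0154). It was covered over 853 and 1141 bp at E18 and over 515 and 441 bp at E28. Per covered base the estimate was -0.45 (adjusted p = 0.0956), where the median of all regions is 0.43. The call on counts per region was lost without the E18 DZ library. The 2 main regions of the gene did not follow: the promoter region, from -3293 to +2626 bp, held 19.1 to 27.0 CPM (log2 fold change -0.15, adjusted p = 0.552). The intragenic region from +3385 to +10519 bp held 36.2 to 44.5 CPM (log2 fold change 0.11, adjusted p = 0.382), and its stages overlapped. Per covered base it was higher at E28 (0.66, adjusted p = 1.14e-04).

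NKX3-2 lies on chromosome 8 (9179061 to 9183340, minus strand). A region from -570 to +7508 bp covered the whole gene and its downstream flank, with 55.8 CPM in E18 ZZ, 56.9 in E18 DZ, 56.2 in E21 ZZ, 45.0 in E21 DZ, 39.6 in E28 ZZ and 43.0 in E28 DZ. The E28 libraries were the lowest, with E21 DZ next to them, and the region fell by 0.49 ± 0.13 (SE) on the log2 scale (adjusted p = 0.0279). Per covered base the estimate was -0.10 (adjusted p = 0.444), where the median of all regions is 0.43. The covered length of the region went from 8060 and 7856 bp at E18 to 5384 and 6787 bp at E28. In the fit over regions of like covered length, where every member estimate was lower, the estimate was -0.74 ± 0.12 (SE, adjusted p = 4.31e-04). The region only just met the limit of that fit, its longest covered length being 1.497 times its shortest. Length was not corrected for there, so the fall is not shown with length matched. The main call was lost without E18 ZZ, E18 DZ or E28 ZZ. The region upstream of the gene, from -4481 to -1231 bp, held 11.8 to 15.5 CPM with overlapping stages (log2 fold change -0.13, adjusted p = 0.667).

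SOX9 lies on chromosome 12 (8642154 to 8647315, minus strand), and had 2 regions. The promoter region, from -6103 to +3304 bp, had 40.9 CPM in E18 ZZ, 44.5 in E18 DZ, 51.9 in E21 ZZ, 51.7 in E21 DZ, 49.1 in E28 ZZ and 60.7 in E28 DZ. The E18 libraries were the lowest. The estimate of 0.31 ± 0.11 (SE) did not pass the test (adjusted p = 0.0738 by edgeR, and 0.0313 by DESeq2, which called 33963 of all 78533 regions). Per covered base it was 0.56 (adjusted p = 2.21e-04, against a median of 0.43 over all regions), and over regions of like covered length 0.07 ± 0.11 (SE, adjusted p = 0.646). The region at the other end of the gene, from +3868 to +6289 bp, had 4.56 CPM in E18 ZZ, 5.11 in E18 DZ, 5.98 in E21 ZZ, 6.02 in E21 DZ, 1.55 in E28 ZZ and 1.35 in E28 DZ. Both E28 libraries lay below all somite libraries, and the region fell by 1.78 ± 0.28 (SE) on the log2 scale against E18 (adjusted p = 0.00697) and by 2.03 ± 0.28 against E21 (adjusted p = 0.0258). The peak there shrank from 2118 and 2417 bp at E18 to 505 and 407 bp at E28, and per covered base the estimate was 0.53 (adjusted p = 0.0571), where the median of all regions is 0.43. The call against E18 was lost without E18 DZ. That against E21 was lost without E21 ZZ or E21 DZ, as were the calls over all regions in that comparison.

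COL2A1 lies on chromosome 5 (78350131 to 78380893, minus strand) and held the member region with the strongest evidence of a fall. Its promoter region, from -1441 to +5470 bp, had 84.5 CPM in E18 ZZ, 86.8 in E18 DZ, 99.6 in E21 ZZ, 113 in E21 DZ, 114 in E28 ZZ and 72.8 in E28 DZ. The 2 myotome libraries were the highest and the lowest of the 6, and no stage difference passed (log2 fold change 0.06 ± 0.18 SE, adjusted p = 0.823). The region from +11886 to +16734 bp, which spans exons and introns and overlaps the antisense long non-coding RNA gene LOC110260776, had 36.2 CPM in E18 ZZ, 33.6 in E18 DZ, 22.9 in E21 ZZ, 15.6 in E21 DZ, 10.7 in E28 ZZ and 9.03 in E28 DZ. The 3 stages did not overlap. The region was lower at E21 than at E18 (log2 fold change -0.95 ± 0.15 SE, adjusted p = 0.0291), lower at E28 than at E21 (-0.93 ± 0.15, adjusted p = 0.0301) and lower at E28 than at E18 (-1.87 ± 0.15, adjusted p = 0.00256). Per covered base the calls on E21 were lost, with -0.26 for E21 against E18 (adjusted p = 0.244) and -0.34 for E28 against E21 (adjusted p = 0.085). The medians of all regions on that scale were 0.08 and 0.33, with 4.69% and 2.26% of regions called lower. ATAC-seq does not tell strands apart, so COL2A1 and LOC110260776 cannot be separated there. The call on E28 against E18 held in all 6 fits that left out 1 library. The E21 against E18 call was lost in each of the 4 fits without a somite library. The E28 against E21 call was lost without E21 ZZ or E21 DZ. Without an E21 library these comparisons lost their calls over all regions, so that loss is not particular to this region. Its covered length went from 4849 and 4131 bp at E18 to 1956 and 1745 bp at E28. Its density was 7.47 and 8.12 CPM per kb in the E18 libraries, 7.34 and 6.33 in the E21 libraries, and 5.45 and 5.18 in the E28 libraries.

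Peaks along the rest of the COL2A1 body were seen mainly in somites. COL2A1 regions with a peak numbered 11 in E18 ZZ, 7 in E18 DZ, 6 in E21 ZZ, 5 in E21 DZ and 3 in each E28 library. Over all 9 genes the regions with a peak numbered 34, 29, 23, 25, 21 and 20 in the order E18 ZZ to E28 DZ, and peaks over the whole genome fell in number from 217138 in E18 ZZ to 131975 and 137769 at E28. The 8 regions without a peak at E28 held at most 4.08 CPM in any library, and 4 of them were called in E18 ZZ alone, the library with the most counts and peaks. The region from +21487 to +24224 bp had 4.08 CPM in E18 ZZ, 1.72 in E18 DZ, 0.48 in E21 ZZ and 0.43 in E21 DZ, and the region from +9882 to +10714 bp had 1.98, 1.51, 0.61 and 0.64 CPM. Their values were lower at E21 than at E18, but the zeros stand for missing peak calls, and these regions were not tested. The region at the 3′ end, from +30615 to +32166 bp, was present in every library with 3.82 to 6.07 CPM, lowest at E21, and did not change (adjusted p = 0.542 for E28 against E18).

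ACAN lies on chromosome 7 (54449830 to 54520606, plus strand), the longest of the 9 genes. Its promoter region, from -889 to +1642 bp, had 11.9 CPM in E18 ZZ, 12.4 in E18 DZ, 8.54 in E21 ZZ, 9.74 in E21 DZ, 6.71 in E28 ZZ and 4.71 in E28 DZ. The stages did not overlap, and the region fell by 1.14 ± 0.25 (SE) on the log2 scale between E18 and E28 (adjusted p = 0.0171). Per covered base the estimate was -0.31 (adjusted p = 0.224), where the median of all regions is 0.43. The call on counts per region was lost without either E18 library. The ACAN region with the most counts was not the promoter but one in the first intron, from +8517 to +10163 bp, with 20.1 CPM in E18 ZZ, 19.8 in E18 DZ, 19.4 in E21 ZZ, 14.4 in E21 DZ, 16.3 in E28 ZZ and 12.2 in E28 DZ. It fell by 0.55 ± 0.16 (SE) between E18 and E28 (adjusted p = 0.0402), with E21 and E28 overlapping. This is the least stable of the 6 calls: it was lost in 5 of 6 fits that left out 1 library, without the breed term, and per covered base the estimate was 0.40 (adjusted p = 0.05), close to the median of 0.43 over all regions on that scale. A second region of the same intron, from +25201 to +27243 bp, was highest at E21, with 9.09 and 9.66 CPM in the E18 libraries, 12.9 and 12.6 CPM in those of E21, and 7.19 and 6.76 CPM in those of E28 (adjusted p = 0.106 for E28 against E18 and 0.0579 for E28 against E21).

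The smaller ACAN regions differed in when they carried peaks. A region of the first intron, from +4718 to +5144 bp, was called in E21 DZ, E28 ZZ and E28 DZ, with 0.62, 1.84 and 1.45 CPM, and was the only member region without a peak at E18 that had one in both E28 libraries. The region from +68260 to +69928 bp, near the end of the gene, showed the reverse, with 4.02 CPM in E18 ZZ, 3.07 in E18 DZ, 2.52 in E21 ZZ, 0.44 in E21 DZ and no peak at E28. A region from +41412 to +42505 bp had 4.20 and 2.25 CPM at E18, 0.90 CPM in E21 DZ and no peak in E21 ZZ or at E28. None of these was tested, since a fit needs a peak in every library.

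**Figure D3:**
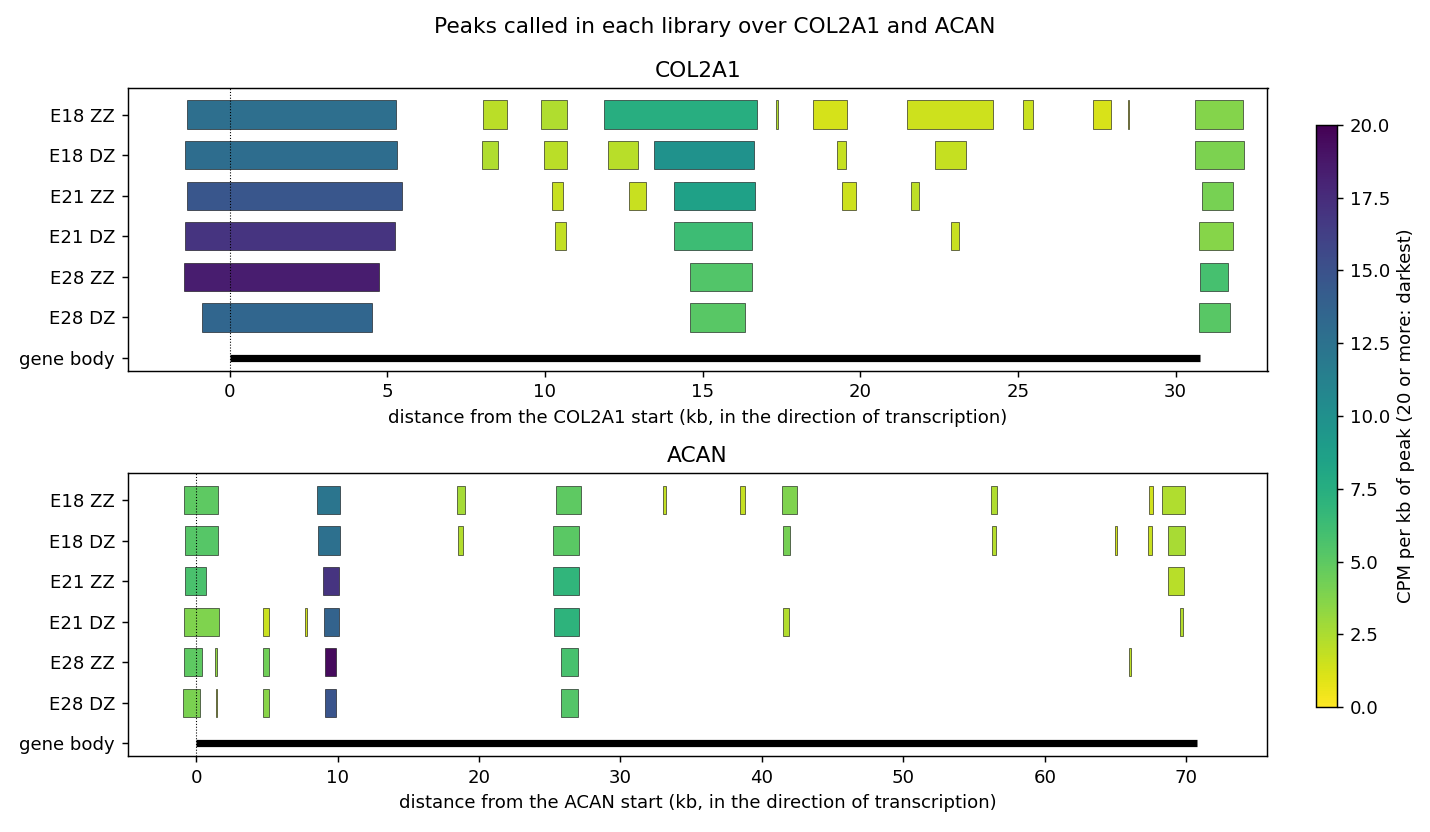
Peaks called in each library (rows) over COL2A1 (top) and ACAN (bottom), placed by distance from the gene start in kb (x axis) in the direction of transcription; the black bar is the gene body and the colour is the level per kb of peak. COL2A1 regions go from 11 in E18 ZZ to 3 in both E28 libraries, and the broad block at +11.9 to +16.7 kb narrows from the top row to the bottom.

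FOXC1, FOXC2 and UNCX each had a single region, which spanned the promoter and all or most of the gene, and none changed between stages in counts per region. FOXC1, on chromosome 7 (837088 to 840593, plus strand), lay in a region from -5719 to +15469 bp with 117 CPM in E18 ZZ, 110 in E18 DZ, 109 in E21 ZZ, 111 in E21 DZ, 103 in E28 ZZ and 115 in E28 DZ. Its stages overlapped, and it was the most even of the 10 promoter regions (log2 fold change -0.10 ± 0.10 SE, adjusted p = 0.473). It was called lower at E28 in the fit over regions of like covered length (-0.34 ± 0.11 SE, adjusted p = 0.0326), where every member estimate was lower than in the main fit. It also overlaps the windows of LOC106504293, LOC110261695 and GMDS, so its counts are not those of FOXC1 alone. FOXC2, on chromosome 6 (2552141 to 2555041, minus strand), had 39.4 CPM in E18 ZZ, 41.6 in E18 DZ, 43.0 in E21 ZZ, 44.1 in E21 DZ, 48.0 in E28 ZZ and 55.3 in E28 DZ. Its stages did not overlap, with E28 the highest. The estimate of 0.30 ± 0.10 (SE) stayed short of the threshold (adjusted p = 0.0598 by edgeR, and 0.0264 by DESeq2, which called 33963 of all 78533 regions). Per covered base it was 0.45 (adjusted p = 0.00186), near the median of 0.43 over all regions, and over regions of like covered length it was 0.06 ± 0.11 (SE, adjusted p = 0.685). FOXC2 lies inside the annotated gene MTHFSD, and these counts serve both. UNCX, on chromosome 3 (804188 to 808574, plus strand), had 77.0 CPM in E18 ZZ, 66.6 in E18 DZ, 86.8 in E21 ZZ, 77.3 in E21 DZ, 66.1 in E28 ZZ and 86.6 in E28 DZ. Its stages overlapped (log2 fold change 0.04 ± 0.17 SE, adjusted p = 0.865), while per covered base the estimate was 0.26 (adjusted p = 0.0362), below the median of 0.43 over all regions, and over regions of like covered length -0.20 (adjusted p = 0.287). Its single region of 21318 bp was called as 1 peak in E18 ZZ and as 7 peaks in E28 ZZ.

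Few members differed between adjacent stages. Between E18 and E21 the COL2A1 intragenic region was the only 1 of 19 to change (5.26%), against 6.59% of all regions called in either direction and 1.78% called lower. Between E21 and E28 the COL2A1 and SOX9 regions described above were the 2 of 19 that changed (10.5%), both lower, against 7.13% of all regions called in either direction and 4.61% called lower. Where only regions within 1.5 times in covered length were tested, the region over NKX3-2 was called lower (-0.43 ± 0.12 SE, adjusted p = 0.0335). That fit did not correct for length. The promoter regions ranged from -0.47 to 0.27 (log2 fold change) for E21 against E18 and from -0.67 to 0.27 for E28 against E21, and 0 of 10 passed either test. Among these 10, 0 and 2 had an unadjusted p under 0.05.

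The breed comparison asks whether crossing with Duroc moves the chromatin of these genes. It called 0 of 19 member regions by edgeR and by DESeq2, and 0 of 19 had an unadjusted p under 0.05 in edgeR. Over all regions edgeR called 0 (0.0%), with 3879 at an unadjusted p under 0.05, and DESeq2 called 159. Estimates for DZ against ZZ over the 19 regions ran from -0.25 ± 0.12 (SE), for the COL2A1 intragenic region, to 0.23 ± 0.40, for the last-exon region of PAX1, and the smallest adjusted p was 0.846. The breeds were not shown to be alike: each was represented by 3 libraries of 3 different stages.

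Counts were also summed per gene, over peaks that overlap the start or the 2000 bp before it and over all other peaks of the gene window. Of the 9 promoter sums, only that of ACAN changed between E18 and E28 (log2 fold change -1.32 ± 0.24 SE, adjusted p = 0.0297), against 29.7% of all 18248 promoter sums, 15.8% of them lower and 13.9% higher. The other 8 estimates were -0.43 for PAX1, -0.25 for PAX9, -0.73 for NKX3-2, 0.50 for SOX9, -0.04 for COL2A1, -0.29 for FOXC1, 0.06 for FOXC2 and -0.39 for UNCX (adjusted p = 0.088 to 0.9). Of the 6 non-promoter sums that passed the filter on low counts, those of COL2A1 (-1.78 ± 0.23 SE, adjusted p = 0.0207) and ACAN (-0.58 ± 0.12 SE, adjusted p = 0.0411) fell, against 25.6% of all 17926 non-promoter sums called and 13.3% called lower. PAX1 (1.14, adjusted p = 0.0869) and PAX9 (0.16, adjusted p = 0.294) did not pass, nor did SOX9 and FOXC1, whose sums were listed at 0 in 1 and 4 libraries. Those of NKX3-2, FOXC2 and UNCX were not past the filter. Per covered base the estimates of COL2A1 and ACAN were 0.33 (adjusted p = 0.118) and 0.84 (adjusted p = 6.58e-05), where the median of all non-promoter sums is 0.79. None of these 3 calls on sums was left in any of the 4 fits without a somite library. Those fits also lost most of the calls over all genes, so the loss is not particular to COL2A1 or ACAN. The promoter sums of wide domains followed how the peak caller had cut them. That of PAX1 was 30.8 CPM where the domain was 1 peak in E18 ZZ and 11.9 CPM where it was 3 peaks in E18 DZ, and that of UNCX went from 77.0 to 23.2 CPM between the same libraries, while their joined regions differed by far less. No promoter sum passed for E21 against E18 or E28 against E21 (0 of 9 each by edgeR, 1 of 9 each by DESeq2, and 1 and 2 of 9 at an unadjusted p under 0.05). Over all 18248 promoter sums edgeR called 0 and 460 in these comparisons, and DESeq2 4470 and 4406. At an unadjusted p under 0.05 in edgeR there were 3925 and 3779.

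To compare shares of cells, each cell was thinned to 4000 counts in the peaks of its own library, which left 7765 to 10775 cells per library. Those peaks cover less sequence at E28, so the total was matched but not the sequence it comes from. The share of cells with at least 1 count in a region then follows the region's level, with an exact binomial interval (Clopper-Pearson, 95%) that covers counting error only. The COL2A1 intragenic region was open in 10.98% of E18 ZZ cells (interval 10.4% to 11.6%), 10.6% of E18 DZ, 6.87% of E21 ZZ, 4.46% of E21 DZ, 3.06% of E28 ZZ (2.69% to 3.47%) and 3.09% of E28 DZ cells. At the same time the COL2A1 promoter region was open in 22.9% and 23.2% of E18 cells, 25.8% and 28.3% of E21 cells, and 28.5% of E28 ZZ but 19.3% of E28 DZ cells. The ACAN promoter region was open in 3.75% and 3.62% of cells at E18 and 2.15% and 1.48% at E28, and the SOX9 last-exon region in 1.53% and 1.75% and then 0.48% and 0.40%. The FOXC1 region was open in 25.4% to 30.1% of cells and the SOX9 promoter region in 11.8% to 16.3%; shares of different genes also follow the length of their regions. Unthinned, the shares were 18.4%, 17.9%, 12.1%, 7.92%, 4.74% and 4.42% for the COL2A1 intragenic region, in the order given, and 33.3% to 44.3% for FOXC1.

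**Figure D4:**
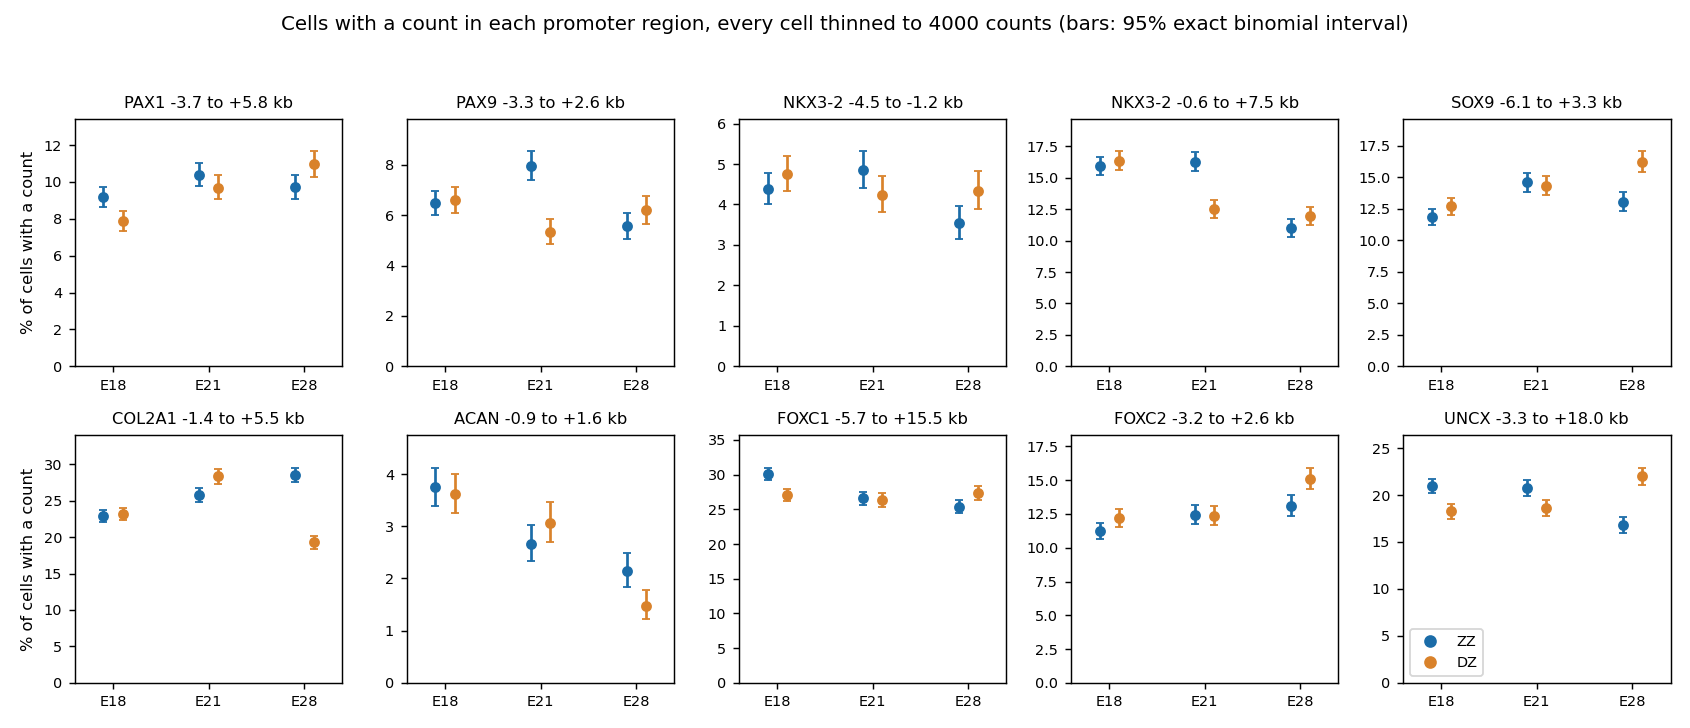
Percent of cells with at least 1 count (y axis, from 0) in each of the 10 promoter regions, by stage (x axis) and breed (ZZ blue, DZ orange), with every cell thinned to 4000 counts; bars are 95% exact binomial intervals for a single library. The ACAN share falls from 3.75% and 3.62% at E18 to 2.15% and 1.48% at E28, and the COL2A1 shares of the 2 E28 libraries, 28.5% and 19.3%, lie apart.

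Whether the members tend to be open in the same cells was described, within each library, by the share of cells open at the second gene among cells open at the first, divided by that share among the remaining cells. The median ratio over the 6 libraries ran from 1.01 to 1.21 over the 36 pairs of members, and was 1.21 for PAX1 with PAX9 and 1.04 for SOX9 with ACAN. It ran from 0.91 to 1.21 over the 36 pairs of a member with PAX3, MYF5, MYOD1 or MYOG, with UNCX and MYOG at 1.21. The ratio was above 1 in all 6 libraries for 23 of the 36 member pairs and for 2 of the 36 mixed pairs, and the medians over pairs were 1.088 and 0.9995. The 6 pairs among the myogenic genes themselves had median ratios of 1.23 to 1.86. Pairs share cells and libraries, so these values are a description only.

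Of 34 other sclerotome and cartilage genes listed for comparison, 30 had a promoter sum that could be tested, and between E18 and E28 2 of 30 rose, against 13.9% of all promoter sums, and 5 of 30 fell, against 15.8%. GDF5, a growth factor of developing joints, rose most, from 6.55 and 5.62 CPM at E18 to 30.2 and 33.3 CPM at E28 (log2 fold change 2.24 ± 0.18 SE, adjusted p = 0.00972), while its non-promoter sum, 3.999 and 3.143 CPM at E18, was called lower and listed at 0 at E28 (adjusted p = 0.0335). MEOX1, a homeobox gene of the somite, rose from 21.2 and 19.8 to 40.1 and 49.96 CPM (0.99 ± 0.14 SE, adjusted p = 0.023). IHH, the hedgehog ligand of growing cartilage, fell from 27.9 and 27.6 to 5.76 and 4.27 CPM (-2.63 ± 0.15 SE, adjusted p = 0.00592), and PTCH1, a hedgehog receptor and target, from 25.7 and 29.0 to 18.2 and 16.7 CPM (-0.79 ± 0.11 SE, adjusted p = 0.023). COMP, a cartilage matrix protein, had 25.5 and 27.1 CPM at E18 and no promoter peak at E28, and its non-promoter sum was listed at 0 at E18 and was 14.4 and 10.2 CPM at E28. IHH did the same in its non-promoter sum, with 0 at E18 and 14.7 and 13.1 CPM at E28, and the caller's choice of peak borders enters both kinds of sum. SOX5 and FGFR3 fell as well (-0.73 and -0.67). The non-promoter sums of this list rose in 7 and fell in 3 of the 30 tested (against 12.3% and 13.3% of all non-promoter sums), and its medians were -0.13 for promoter sums, against -0.05 over all, and 0.09 for non-promoter sums, against -0.22 over all. Besides COMP and IHH, the rises were EPYC (1.36), WWP2 (0.84), SOX6 (0.51), COL9A1 (0.44) and RUNX2 (0.36), and the falls were GDF5, COL9A2 (-1.45) and SP7 (-0.58).

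The gene whose promoter sum was most like that of each member over the 6 libraries, among 15007 genes with at least 5 CPM on average, was a description with no test, and each point shares its library, depth and peak calling with the others. For ACAN it was LDB3 (Pearson r = 0.999), for NKX3-2 CKM (0.995), for COL2A1 TBC1D8 (0.996) and for SOX9 TRIP12 (0.992). For FOXC1 it was its neighbour LOC110261695 (r = 1.0), which lies in the same region and shares its peaks. The others were MIDN for PAX1 (0.987), ZNF579 for PAX9 (0.970), SLC30A9 for FOXC2 (0.985) and LOC100513133 for UNCX (0.967). Each r is the highest among 15007 genes over only 6 libraries. High values follow in part from that selection, and no link between the genes is read from them.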

How the data were processed

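Single-cell ATAC-seq was measured in 6 libraries, grouped by stage and breed from their labels. The authors aligned reads to Sscrofa11.1, called peaks in each library with Cell Ranger ATAC and analysed cells with Seurat 3.1.1 and Signac 0.2.2. The deposited values are raw counts of Tn5 cut sites per peak and barcode, not normalized, and exist only inside peaks of that library. Peaks within the gene windows were counted over barcodes with 2000 to 30000 counts, and peaks that overlapped by at least 1 bp were joined into regions. No doublets were called, and the authors' treatment of them was not used here. Counts summed per library were tested with edgeR 4.0.16 (quasi-likelihood, TMM, R 4.3.3) over all regions with a peak in every library, or all genes past filterByExpr for the sums per gene, with stage and breed as terms and calls at a Benjamini-Hochberg adjusted p under 0.05. This leaves 2 residual degrees of freedom, and a stage by breed interaction could not be fitted. The p-values measure the spread between the ZZ and DZ library of a stage after the breed term. The edgeR script was tested on simulated data.

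The member genes, comparison lists and motifs were chosen with earlier results of these data known. 1 list of markers is not reported here. By rule, the text names each member with its sums, its promoter and non-promoter regions of highest mean CPM, other regions past the threshold at E28 against E18, and the leading rises and falls of the comparison list. The remaining regions, and the remaining genes of the list, were named after their values were seen. Intervals on shares of cells are exact binomial (95%) and cover counting error only. Alternatives were DESeq2 1.42.0, RLE scaling, other barcode and count filters, covered length as an offset or limited to 1.5 times, other peak rules, no breed term, and leaving out each library.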

Additional observations from a re-analysis of the deposited data

Results flagged for a closer look

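In 5 regions without a called stage difference, E28 lay above E18 in one breed and below it in the other, with 1 library per stage and breed, so the difference between breeds was not tested. The change is E28 minus E18 in log2 CPM. For the COL2A1 promoter region it was 0.43 in ZZ and -0.25 in DZ, a difference (DZ minus ZZ) of -0.68. For UNCX, the homeobox gene of the posterior sclerotome, it was -0.22 in ZZ and 0.38 in DZ, a difference of 0.60. The PAX1 intragenic region from +7729 to +11329 bp had -0.27 and 0.20, a difference of 0.47. The upstream region of NKX3-2 had -0.30 and 0.09, a difference of 0.39. FOXC1 had -0.18 and 0.07, a difference of 0.26.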

How the results depend on the processing

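The breed comparison called 0 member regions and 0 member sums under each alternative run that gave a value. Member region calls went from 6 for E28 against E18 to 2 where covered length was limited to 1.5 times (NKX3-2, 1 of the 6, and FOXC1; only 8 of 19 regions were tested there, and the other 5 of the 6 were not), and from 1 to 9 when a library was left out. Over all regions, the E28 against E18 fit within 1.5 times called 9087 of 25935. With a library left out, the calls over all regions in this comparison moved too. They were fewest without E18 DZ and most without E28 ZZ, as were those of the members, so this range is not particular to the members. For E28 against E21 the member region calls went from 2 to 4 with DESeq2. With covered length as an offset there were 6, all higher and neither of the 2 among them. Within 1.5 times there was 1 (NKX3-2), and neither of the 2 was tested. Of all 78533 regions edgeR called 5603 in this comparison and DESeq2 15465, while the offset called 23701 higher and 1776 lower. For E21 against E18 the member region calls went from 1 to 0 with the offset or within 1.5 times (where it was not tested). Both adjacent-stage counts of member regions also moved with a library left out. Without an E21 library the calls between adjacent stages were lost over all regions. Promoter sums called for E28 against E18 went from 1 to 2 with DESeq2 or the offset, 0 within 1.5 times (3 tested) or with at least 50% of the peak inside (2 tested), and 0 to 2 with a library left out. For E28 against E21 they went from 0 to 1 with DESeq2 or the offset, and also moved with a library left out. For E21 against E18 they went from 0 to 1 with DESeq2. Of all 18248 promoter sums DESeq2 called 10360 for E28 against E18, 4406 for E28 against E21 and 4470 for E21 against E18. The offset called 7786 of 15417 for E28 against E18 and 2055 for E28 against E21. Non-promoter sums called for E28 against E18 went from 2 to 5 with DESeq2, 0 within 1.5 times (where 0 could be tested), 1 without the breed term or with at least 50% of the peak inside, and 0 to 4 with a library left out. For E28 against E21 they went from 0 to 5 with DESeq2 and 2 with the offset, and for E21 against E18 from 0 to 3 and 1. Over all 17926 non-promoter sums DESeq2 called 9807, 6278 and 5441 in these comparisons, against 4591, 0 and 70 by edgeR. The offset called 7420 of 12973 for E28 against E21 and 2660 for E21 against E18. The offset moves the median of all regions to 0.43 for E28 against E18, and some region estimates with a call on either scale changed sign. For E28 against E18 these were the SOX9 region from +3868 to +6289 bp (0.53), the PAX1 region from +7729 bp (0.84) and the ACAN intron region (0.40). For E28 against E21 they were the same SOX9 region (0.31), the same PAX1 region (0.62) and the PAX9 region from +3385 to +10519 bp (0.62). The non-promoter sums of COL2A1 (0.33) and ACAN (0.84) changed sign for E28 against E18. Uncalled estimates for E28 against E18 also changed sign in COL2A1 (+30615 bp), ACAN (+25201 bp), upstream of NKX3-2, at the PAX9 promoter and in FOXC1. With at least 50% of the peak inside, the ACAN promoter sum is 0 at E18, where the longer peaks fail this rule, and its estimate (13.57) is no fold. For the other changes the cause was not tested. Leaving out a library leaves its stage with 1, which is assumed to vary like the others. No paired analysis was possible because the labels give no replicate numbers; the breed term, which links libraries of a breed across stages, was already in the fit.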
